A study of Homo sapiens with 8 samples.

Results

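The comparison of MetaICM with 6 days of ICM concerns 4 of the 8 factory RNA-Seq libraries of the series, 2 labelled MetaICM and 2 labelled ICM 6 days, chosen by their titles alone. All 8 come from IMR90, a line of human lung fibroblasts of fetal origin with a limited lifespan, kept at low passage. The libraries called young are the wild type without ICM, and the other groups were treated with ICM for 3 or 6 days or are called MetaICM. The labels describe these last cells only as low passage and treated with "metaICM", and neither they nor the study's text give the agent, its dose or the time, so the contrast is between 2 treatments of which 1 is not described in the sources used here. No separate cultures are named for replicates 1 and 2 of a group, so p-values measure the spread between these libraries, which may be technical.

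ICM (inflachromene) is a small molecule that binds HMGB1 and HMGB2, abundant nuclear proteins that bend DNA and that also act as inflammatory signals outside the cell. Senescent fibroblasts leave the cell cycle for good. They switch off the genes of DNA replication and mitosis, lose lamin B1 and HMGB proteins, raise cyclin-dependent kinase inhibitors such as p21, and often secrete cytokines and matrix proteases. Factory RNA-Seq enriches for RNA still attached to transcription factories, the nuclear sites where active genes are transcribed, although the labels of these libraries describe selection of polyadenylated RNA. The values are counts of read pairs on exons, given here as counts per 1e6 (CPM) scaled with TMM factors. In such bulk samples, fewer cells that express a gene and less RNA per cell cannot be told apart.

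The 4 libraries held between 18386385 and 23166405 counts over 28265 genes, and the series between 12095123 and 23166405. Replicates correlated with an r of 0.9957 (MetaICM) and 0.9950 (6 days) on the log2 scale, and libraries of the 2 groups with 0.9493 to 0.9533. Fibroblast identity was clear in all libraries: the 12 fibroblast markers examined summed to 36344.8 to 36680 CPM in MetaICM and 16042.5 to 16466.3 CPM after 6 days, with COL6A3 the highest and none at 0 counts. The 12 epithelial markers summed to 68.6 to 72 CPM against 37.1 to 39.1, most of it KRT18, with KRT14 at 0 counts in MetaICM and none at 0 after 6 days. The 8 endothelial markers summed to 222 to 235 CPM against 165 to 198, most of it TEK, with CDH5 at 0 in both groups. The 8 leukocyte markers summed to 14.5 to 15 CPM against 18.2 to 22, most of it CD68, with CD3E at 0 in both groups.

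MetaICM and 6 days of ICM differed in 4447 of the 16036 genes tested. In MetaICM, 2518 genes were higher (15.7%) and 1929 lower (12%), with an adjusted p-value under 0.05 from edgeR's quasi-likelihood test and an absolute log2 fold change (log2FC, MetaICM minus 6 days) over 0.6. The median log2FC of all genes tested was 0.007, and its quartiles were -0.35 and 0.40. A log2FC above 2 was reached by 463 of the higher genes, and one below -2 by 250 of the lower genes. Cell cycle and replication-dependent histone genes, smooth muscle and matrix genes made up much of what was higher among the lists examined. The antioxidant and glycolytic lists held the most lower genes, with 25 and 21.

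**Figure D1:**
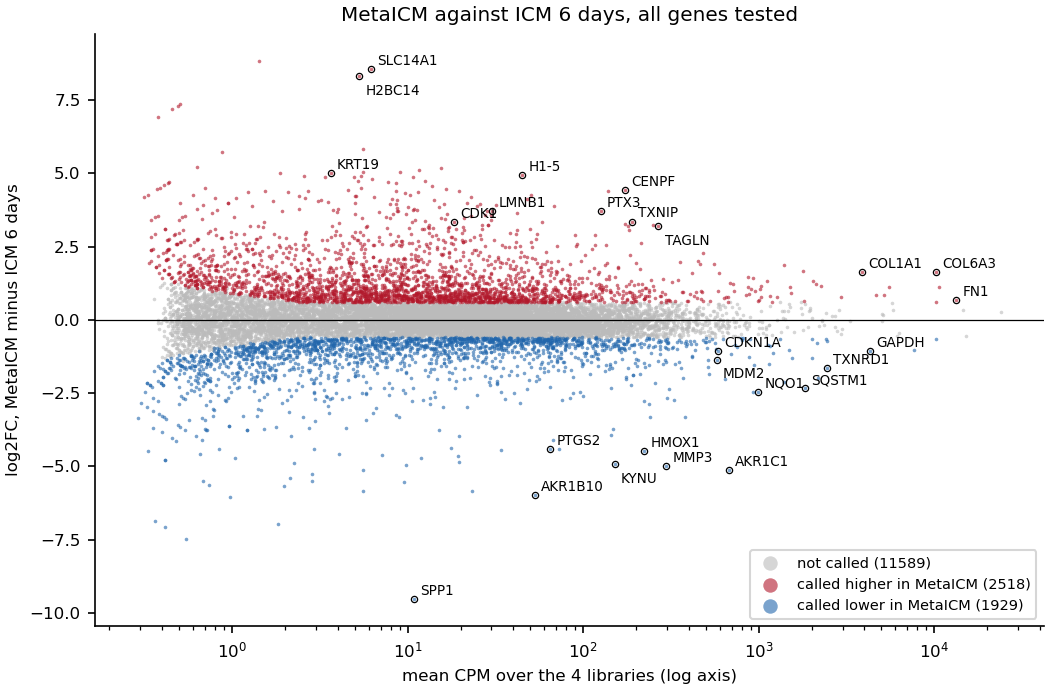
Mean level over the 4 libraries (CPM, log axis) against log2FC (MetaICM minus ICM 6 days) for each gene tested, with the 2518 genes called higher in red, the 1929 called lower in blue and the rest in grey. SLC14A1 and H2BC14 lie near the top and SPP1 at the bottom, each close to 0 CPM in 1 of the groups, while COL6A3, COL1A1 and GAPDH moved at much higher levels.

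Replication-dependent histones, which package newly made DNA and are transcribed in S phase, had the largest median log2FC of the gene lists examined. Of the 49 such genes tested, 47 were higher in MetaICM, none was lower, and the median log2FC was 3.70. H1-5, a linker histone on chromosome 6 of hg19 (27834570 to 27835359), had 2.53 and 3.08 CPM after 6 days and 75.7 and 97.7 CPM in MetaICM, against 110 and 97.6 CPM in young cells. Both MetaICM libraries were far above both 6-day libraries. Of the MetaICM values, 75.7 CPM lay below both young libraries and 97.7 CPM just above the lower of them. The difference between MetaICM and 6 days was a log2FC of 4.94 (standard error, SE, 0.14, edgeR adjusted p = 7.62e-17). H2AC14, a core histone gene, had 0.269 and 0.106 CPM after 6 days and 9.48 and 12.5 CPM in MetaICM, a log2FC of 5.83 (SE 0.33), which was 6.61 without 6-day replicate 1. H2BC14 received 1 count over both 6-day libraries and 455 counts in MetaICM, a ratio of 396 after scaling (95% exact binomial interval from 70.6 to 15656.3, which covers counting error only). H1-2, a linker histone that is also made outside S phase, had 71.1 and 83 CPM after 6 days and 76.5 and 103 CPM in MetaICM. It did not pass the test (log2FC 0.21, edgeR adjusted p = 0.087), and H4C8 passed it but stayed under the fold cutoff (log2FC 0.41, edgeR adjusted p = 0.0171). Histone genes are short and alike in sequence, so pairs may have been counted at a near-identical copy.

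All 30 mitosis genes tested were higher in MetaICM, with log2FC from 0.79 to 4.44 and a median of 3.14. CENPF, a kinetochore protein (chromosome 1, 214776538 to 214837914), rose from 14.4 and 16 CPM to 320 and 343 CPM, with 525 and 507 CPM in young cells. The groups did not overlap, and MetaICM stayed below young. Its log2FC was 4.44 (SE 0.09, edgeR adjusted p = 2.48e-19). KIF20A, a kinesin of cytokinesis, rose from 5.22 and 4.67 to 93.9 and 97.6 CPM, so that its log2FC was 4.27 (SE 0.10). CDK1, the kinase that drives entry into mitosis, rose from 2.8 and 3.82 to 32.6 and 34.5 CPM, a 10.1-fold difference (log2FC 3.33, SE 0.14). Aurora kinase B (AURKB), Polo-like kinase 1 (PLK1) and CDC20, the activator of the anaphase-promoting complex, rose by log2FC of 4.37, 3.13 and 3.90.

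Of 35 E2F and DNA replication genes tested, 33 were higher and none lower, with a median log2FC of 1.82. MCM5, a subunit of the replicative helicase, had 8.72 and 8.98 CPM after 6 days, 71.5 and 78.6 CPM in MetaICM and 86.3 and 59.2 CPM in young cells. UHRF1, which guides maintenance methylation of new DNA, had 12.7 and 12.5 CPM after 6 days, 93.4 and 99 CPM in MetaICM and 112 and 75.5 CPM in young cells. For both genes MetaICM lay within the spread of the young libraries. Their log2FC against 6 days was 3.08 (SE 0.10) and 2.93 (SE 0.09). PCNA, the sliding clamp of DNA polymerases, had 49.5 and 46.6 CPM against 61.5 and 58.9 CPM, a log2FC of 0.32 that stayed under the cutoff, and CCNE1 was the other gene not called.

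The promoter sequences of these 3 lists were searched for motifs. They are RefSeq windows of the 250 bases before each start in GRCh38.p14, and a gene with several starts counted once. CHR elements (TTTGAA or TTCGAA on either strand), known from G2 and M phase genes, were in the windows of 14 of 25 mitosis genes with an entry, or 56%, against 17.2% of all 27305 genes in the table and 14.3% of the 11786 genes also tested here. The CCAAT box (CCAAT, either strand), the site of NF-Y, was in 20 of the 25, or 80%, against 37% of all genes. E2F motifs (TTGGCGC or TTCCCGC or TTGCCGC or TTCGCGC on either strand) were in 19 of 29 E2F and replication genes, or 65.5%, against 13% of all genes and 19.9% of those tested. CHR elements were in 2 of the 29, and E2F motifs in 5 of the 25 mitosis genes. Histone genes held CHR elements in 15 of 44 windows (34.1%) and E2F motifs in 16 (36.4%). CCAAT was also in 18 of 29 E2F and replication genes (62.1%), against 40.9% of genes tested. Among smooth muscle genes it was in 9 of 14 (64.3%). In the histone list, 38 of 44 genes held CCAAT and 30 of 44 held TATAAA on either strand, or 68.2%, against 13% of all genes for the latter. These matches describe letters in a window and no binding. Parts of 5 promoters are shown because they carry pairs of these motifs. Capitals mark CHR and CCAAT in PLK1 and CDC20, E2F and CCAAT in UHRF1, and CCAAT and TATAAA in both histone genes, where other motifs such as an E2F match in H2AC14 stay in lower case, with each sequence ending at the base before the start.
PLK1 (chr16:23678789-23678888, + strand): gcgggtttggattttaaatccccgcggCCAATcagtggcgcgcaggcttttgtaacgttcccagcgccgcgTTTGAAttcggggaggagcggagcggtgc
CDC20 (chr1:43358871-43358980, + strand): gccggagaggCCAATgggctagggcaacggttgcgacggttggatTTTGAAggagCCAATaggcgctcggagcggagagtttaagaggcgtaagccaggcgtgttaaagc
UHRF1 (chr19:4909391-4909500, + strand): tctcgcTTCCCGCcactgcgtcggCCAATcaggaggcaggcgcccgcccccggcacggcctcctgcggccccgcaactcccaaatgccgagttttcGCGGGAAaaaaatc
H2AC14 (chr6:27814778-27814887, - strand): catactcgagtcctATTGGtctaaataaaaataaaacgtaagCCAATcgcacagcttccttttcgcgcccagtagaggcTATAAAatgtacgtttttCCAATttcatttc
H4C13 (chr6:27873535-27873644, - strand): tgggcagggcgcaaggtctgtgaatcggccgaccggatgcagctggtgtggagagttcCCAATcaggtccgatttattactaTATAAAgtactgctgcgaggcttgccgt

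Some genes of nuclear proteins that senescent cells are known to lose, such as LMNB1 and HMGB2, were higher in MetaICM as well. Of 28 chromatin and lamina genes tested, 14 were higher and none lower (median log2FC 0.64). LMNB1, which encodes lamin B1, had 3.66 and 4.83 CPM after 6 days, 54 and 58.5 CPM in MetaICM and 81.4 and 77.9 CPM in young cells (log2FC 3.72, SE 0.12, edgeR adjusted p = 4.01e-16). The targets of ICM differed in size of change. HMGB2 rose from 4.47 and 3.72 to 34.5 and 40 CPM (log2FC 3.18, SE 0.13), and HMGB1 from 59.9 and 62.8 to 105 and 125 CPM (log2FC 0.90, SE 0.08). Both overlapped the young libraries, where HMGB2 had 43.5 and 34.1 CPM and HMGB1 115 and 108 CPM. HMGA2, which binds AT-rich DNA, and EZH2, the methyltransferase of Polycomb repressive complex 2, rose by log2FC of 1.74 and 2.17. CTCF, an architectural DNA-binding protein, had a log2FC of 0.20 (edgeR adjusted p = 0.0743).

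Inhibitors and D-type cyclins split, with 5 of 15 genes of this list higher and 3 lower. The inhibitors CDKN2C, which encodes p18, and CDKN1C, which encodes p57, were higher (log2FC 2.42 and 1.70). CDKN1A, which encodes p21 and is a target of p53, had 804 and 793 CPM after 6 days and 365 and 394 CPM in MetaICM, so it was lower (log2FC -1.08, SE 0.08, edgeR adjusted p = 1.07e-10). Young cells had 138 and 94.2 CPM, and no MetaICM library fell in the range of either group. CDKN2B was lower (log2FC -0.91), while CDKN2A, the p16 locus, had 4.58 and 3.51 against 4.91 and 5.73 CPM (log2FC 0.40, edgeR adjusted p = 0.0965). CCND2, a D-type cyclin that pairs with CDK4 and CDK6, had 14.8 and 16.4 CPM after 6 days, 86.5 and 87.8 CPM in MetaICM and 24.5 and 28.4 CPM in young cells. Its log2FC was 2.48 (SE 0.09), and the MetaICM libraries were the highest of all 8. CCND1 was also highest in MetaICM, with 1081.2 and 1095.7 CPM against 614 and 605 CPM after 6 days (log2FC 0.83, SE 0.08). CCND3 was lower (log2FC -0.65), which shrank to -0.56, short of the cutoff, without MetaICM replicate 1.

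Among 30 p53 targets, 2 were higher and 5 lower, and the median log2FC of -0.08 was close to that of all genes. The lower ones were GDF15 (log2FC -1.73), MDM2 (-1.35), CDKN1A, RRM2B and EDA2R, and the higher ones BBC3 and SESN2. MDM2, the ubiquitin ligase that degrades p53, had 796 and 855 CPM after 6 days, 331 and 317 CPM in MetaICM and 283 and 227 CPM in young cells. With offsets for exon GC content and length, an alternative added after seeing the data, 3 of the 30 were lower and none higher.

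**Figure D2:**
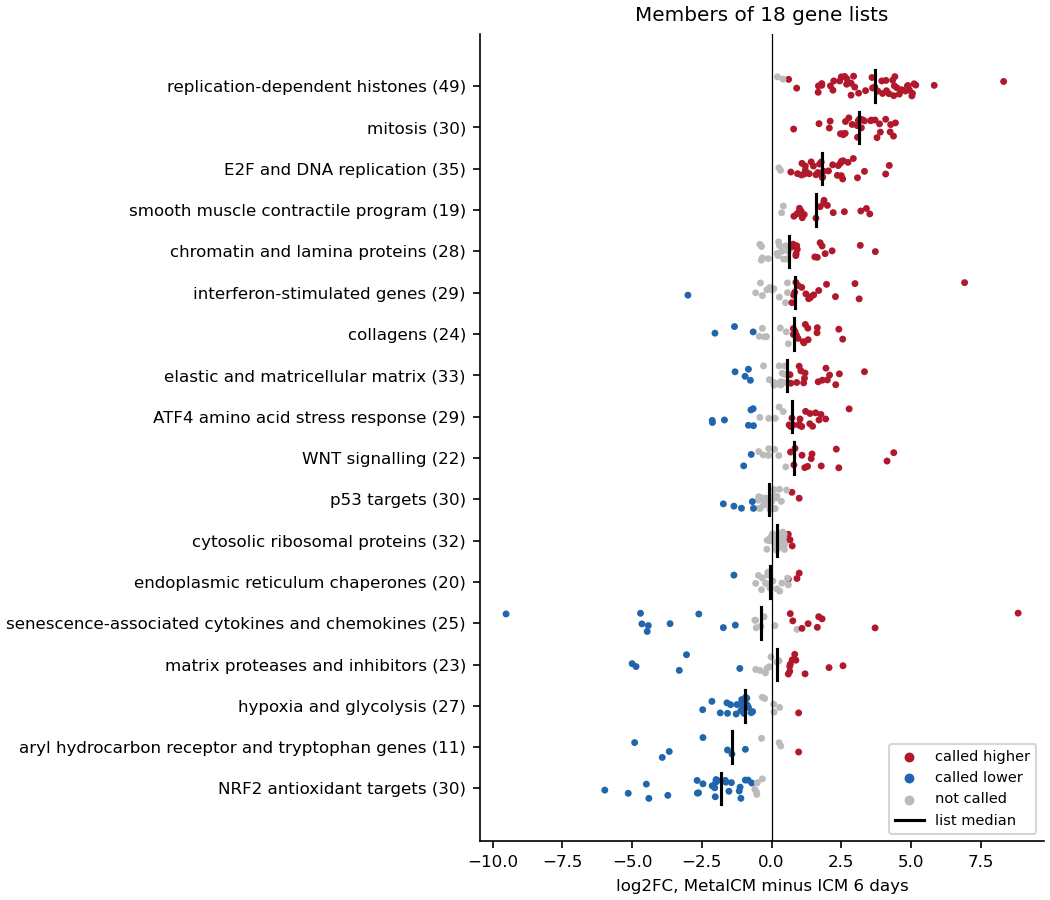
Each point is a gene of the list named at the left, with the number tested in parentheses, placed by log2FC (MetaICM minus ICM 6 days). Red points were called higher, blue called lower and grey not called, and black bars mark medians, from 3.70 for the replication-dependent histones to -1.80 for the NRF2 antioxidant targets.

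NRF2 is a transcription factor that is degraded by way of KEAP1 and, when spared by oxidants or electrophiles, drives genes for glutathione, thioredoxin, NADPH and iron handling. Of the 30 listed genes, which include those of NRF2 and KEAP1, none was higher in MetaICM and 25 were lower, KEAP1 among them. Their median log2FC was -1.80, with a range from -5.98 to -0.33. AKR1B10, an aldo-keto reductase, had 97.5 and 110 CPM after 6 days and 1.44 and 1.84 CPM in MetaICM, with 3.93 and 3.11 CPM in young cells (log2FC -5.98, SE 0.13, edgeR adjusted p = 8.03e-19). AKR1C1, a relative that breaks down steroids, had 1293 and 1340.4 CPM against 36.6 and 38.3 CPM (log2FC -5.14, SE 0.09), and its sequence is close to that of AKR1C2, which may share its reads. HMOX1, which degrades heme, had 426 CPM in both 6-day libraries, 19.8 and 18.3 CPM in MetaICM, and 36.3 and 14.5 CPM in young cells (log2FC -4.49, SE 0.09). For HMOX1, MetaICM lay within the range of the young libraries, and for AKR1B10 and AKR1C1 below it.

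Other members with the same direction span the arms of the response. NQO1, a quinone reductase, had 1681.2 and 1671.3 CPM against 299 and 312 CPM (log2FC -2.46, SE 0.08). GCLM, the regulatory subunit of the enzyme that starts glutathione synthesis, had 496 and 535 CPM against 80.7 and 83.3 CPM (log2FC -2.66). TXNRD1, thioredoxin reductase, had 3719.4 and 3648.8 CPM against 1210.7 and 1163.8 CPM (log2FC -1.64), and SLC7A11, the cystine importer, 2245.9 and 2260.9 against 529 and 503 CPM (log2FC -2.13). NFE2L2, which encodes NRF2 itself, had 251 and 221 against 191 and 184 CPM, a log2FC of -0.33 that was not called. SQSTM1, an autophagy receptor that binds KEAP1 and is not in this list, had 2935.3 and 3194.9 against 601 and 613 CPM (log2FC -2.34, SE 0.09).

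The core of the antioxidant response element (TGACNNNGC on either strand, which overlaps the AP-1 motif TGACTCA where GC follows it) was in the 250 bases before the start of 6 of 21 listed genes with an entry, or 28.6%, against 13.2% of all 27305 genes and 15.6% of those tested. The same core was in 7 of 29 E2F and replication genes (24.1%) and 3 of 14 smooth muscle genes (21.4%). In the mitosis and histone lists it was in 4 of 25 (16%) and 2 of 44 (4.55%). Elements farther away are outside these windows. TXNRD1 and GCLM are shown as examples of the 6, with the match in capitals. The TXNRD1 stretch covers bases 120 to 41 before the start and the GCLM stretch the last 80.
TXNRD1 (chr12:104215659-104215738, + strand): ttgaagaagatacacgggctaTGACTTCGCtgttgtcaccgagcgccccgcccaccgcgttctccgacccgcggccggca
GCLM (chr1:93909431-93909510, - strand): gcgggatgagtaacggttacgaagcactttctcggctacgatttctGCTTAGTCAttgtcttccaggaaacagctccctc

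Glycolytic and hypoxia-responsive genes were lower together. Of 27 tested, 21 were lower and 1 higher, with a median log2FC of -0.95. STC1, a secreted glycoprotein, had 173 and 151 CPM after 6 days and 29.6 and 29.2 CPM in MetaICM (log2FC -2.47). PDK1, a kinase that inhibits pyruvate dehydrogenase, had 169 and 173 against 49.6 and 46.6 CPM (log2FC -1.84). GAPDH, a glycolytic enzyme, had 5740.3 and 5873.1 CPM against 2619.1 and 2972.7 CPM (log2FC -1.06, SE 0.09), with 2063.1 and 1478.4 CPM in young cells. The glucose importer SLC2A1 and lactate dehydrogenase LDHA fell by log2FC of 1.27 and 0.93. HIF1A, the oxygen-regulated factor, was lower too (log2FC -0.87), while EPAS1, which encodes its relative HIF2-alpha, was the 1 higher gene (log2FC 0.97). Of 30 nuclear genes of oxidative phosphorylation, 2 were higher and none lower (median log2FC 0.20).

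Of 11 aryl hydrocarbon receptor and tryptophan genes tested, 7 were lower and 1 higher (median log2FC -1.42). KYNU, kynureninase of tryptophan breakdown, had 283 and 302 CPM after 6 days, 10.2 and 9.27 CPM in MetaICM and 25 and 16.4 CPM in young cells (log2FC -4.91, SE 0.09, edgeR adjusted p = 1.16e-19). CYP1B1, a cytochrome that the receptor induces, had 284 and 254 against 18.8 and 16.8 CPM (log2FC -3.92), the receptor gene AHR 317 and 293 against 103 and 101 CPM (log2FC -1.58), and TIPARP 160 and 164 against 61.8 and 59.4 CPM (log2FC -1.42). MetaICM was the lowest group of the series for all 4 genes. Transporters moved mostly the same way, with 12 of 23 lower and 4 higher (median log2FC -0.66), the iron exporter SLC40A1 among the lower.

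The ATF4 program, which supplies amino acids under stress, went the other way with exceptions. Of 29 genes tested, 17 were higher and 7 lower (median log2FC 0.73). The higher genes included the serine synthesis enzymes PHGDH (log2FC 1.37) and PSAT1 (1.58) and the mitochondrial enzyme PCK2 (1.94), which had 14.4 and 13.9 CPM after 6 days, 52.1 and 56.8 CPM in MetaICM and 96.3 CPM in both young libraries. SLC7A11 and ATF3 led the lower genes, the latter with 46 and 48.5 CPM after 6 days against 9.92 and 11.9 CPM (log2FC -2.12). ATF4 itself had a log2FC of 0.63, which was 0.59 without 6-day replicate 1, 0.51 without MetaICM replicate 2 and 0.47 with the offsets for exon GC content and length, all short of the cutoff.

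Cytokines and chemokines of the senescence secretome did not move as a group. Of 25 tested, 9 were higher and 9 lower, and the median log2FC of -0.38 ranged from -0.50 to 0.06 over the alternatives. SPP1, osteopontin, received 809 counts after 6 days and 1 count in MetaICM, a ratio of 931 of 6 days over MetaICM (95% exact binomial interval from 167 to 36803.5), and 0 counts in young cells. CXCL8, interleukin 8, had 22.1 and 24.1 CPM after 6 days and 0.645 and 1.09 CPM in MetaICM (log2FC -4.70, SE 0.19), but 23.2 and 2.38 CPM in the young libraries, so that both MetaICM values lay below the young range and the 6-day values within or just above it. TNFAIP6, a hyaluronan-binding protein of inflammation, had 38.7 and 36.1 against 1.34 and 1.62 CPM (log2FC -4.65). IL6 had 3.28 and 3.08 against 2.73 and 2.58 CPM (log2FC -0.27, edgeR adjusted p = 0.339). Among the higher genes, PTX3, a soluble pattern receptor, had 17.8 and 17.7 CPM after 6 days, 233 and 234 CPM in MetaICM and 131 and 86.1 CPM in young cells (log2FC 3.71, SE 0.08, edgeR adjusted p = 1.15e-18). IGFBP7 had 68.3 and 70.6 against 229 and 262 CPM (log2FC 1.81). IL32 had 0 counts after 6 days and 123 in MetaICM, at least 35.6-fold higher against a floor of 3 counts over the group.

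Proteases and prostaglandin genes included some of the largest decreases. MMP3 (stromelysin 1) had 589 and 567 CPM after 6 days, 19 and 17.2 CPM in MetaICM and 16.1 and 8.6 CPM in young cells (log2FC -5.00, SE 0.09, edgeR adjusted p = 6.94e-20). MMP10 and the collagenase MMP1 had log2FC of -4.86 and -3.31, whereas 10 of the 23 protease and inhibitor genes tested were higher, among them ADAMTS8 (2.56). PTGS2, cyclooxygenase 2, had 136 and 112 CPM after 6 days, 3.92 and 7.56 CPM in MetaICM and 90 and 29.8 CPM in young cells (log2FC -4.41, SE 0.15). Both MetaICM values lay below every other library of the series. The 17 prostaglandin and lysophospholipid genes tested had 7 lower and 2 higher members (median log2FC -0.39). Immediate early genes, which respond to growth and stress signals within minutes, counted 9 lower and 4 higher of 28, although their median log2FC was 0.11. NR4A2, a nuclear receptor, had 44.9 and 29.1 against 2.43 and 2.36 CPM (log2FC -3.95), and FOS 12.7 and 17.7 against 2.03 and 6.47 CPM, so that its log2FC of -1.81 was -1.22 without MetaICM replicate 1 and -2.90 without replicate 2. With the GC and length offsets, the counts were 10 lower and 1 higher.

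Genes that signal through NF-kB or interferon were higher more often than lower. Of 15 NF-kB subunits and feedback genes, 7 were higher and 1 lower (median log2FC 0.37). NFKBIA, the inhibitor IkB-alpha, had 18.4 and 13.9 against 34 and 34.6 CPM (log2FC 1.08), while RELA and NFKB1, which encode the main subunits, had log2FC of 0.09 and 0.37 and were not called. Of 29 interferon-stimulated genes, 17 were higher and 1 lower (median log2FC 0.83). OAS3, a sensor of double-stranded RNA, had 3.28 and 2.07 CPM after 6 days, 23.5 and 23.7 CPM in MetaICM and 21.1 and 21.5 CPM in young cells (log2FC 3.14, SE 0.16). MX1, an antiviral GTPase, was highest in MetaICM, with 9.87 and 8.79 CPM against 1.72 and 2.07 CPM after 6 days and 2.02 and 2.21 CPM in young cells. OASL had 0 counts after 6 days and 32 in MetaICM, at least 9.27-fold higher. IFI44L was the exception, with 12.2 and 11.3 against 1.59 and 1.36 CPM (log2FC -3.00). In the complement list, 4 of 14 genes were higher, C3 with 0.431 and 0.319 against 10.5 and 9.75 CPM, and 3 were lower. The higher and lower genes were 28.6% and 21.4% of that list, against 15.7% and 12% of all genes tested.

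**Figure D3:**
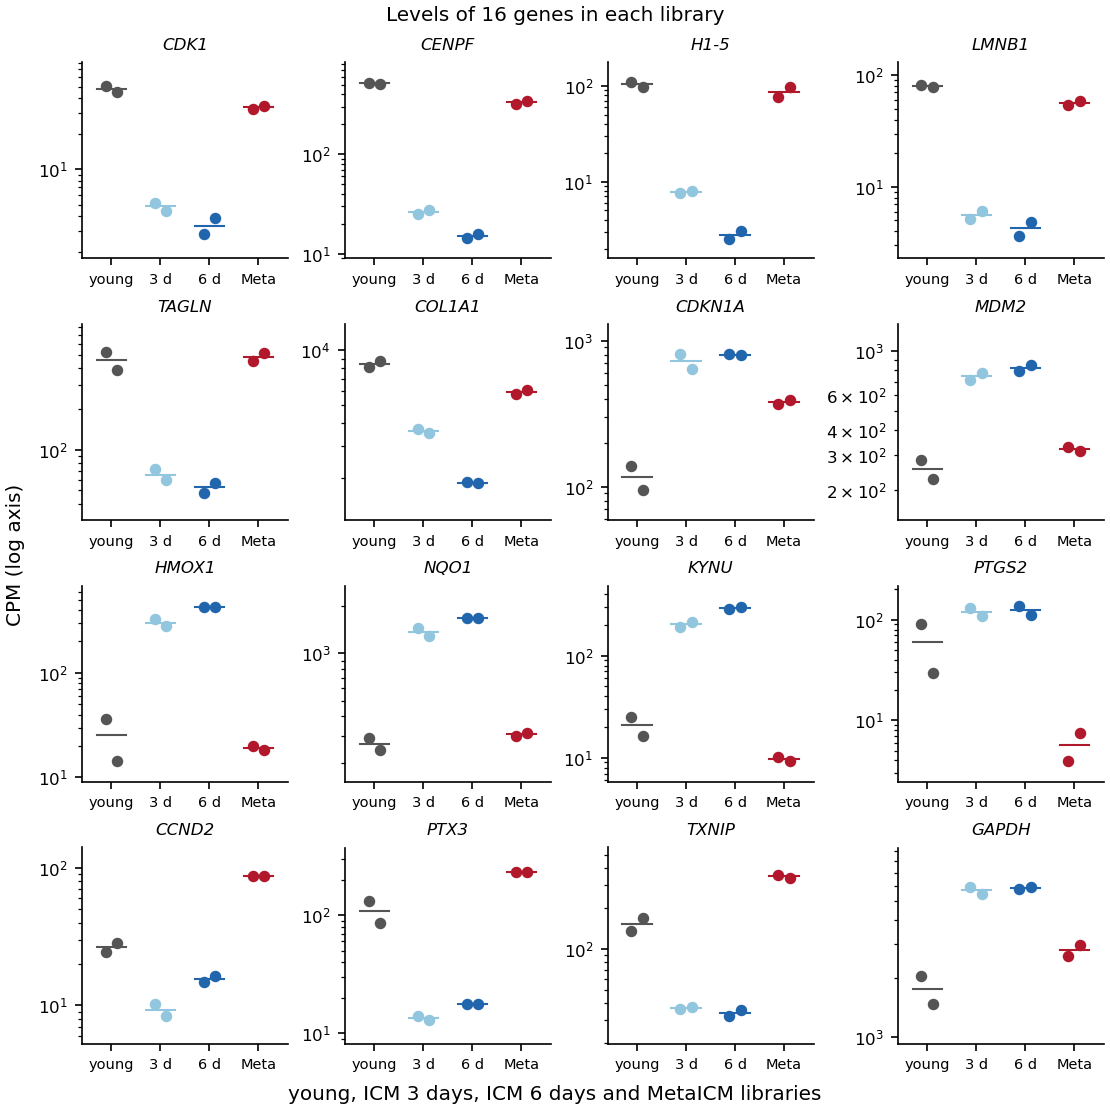
CPM (log axis, scaled per gene) of 16 genes in each of the 8 libraries, with a point per library and a line at the group mean. CDK1, CENPF, H1-5, LMNB1, TAGLN and COL1A1 were low at 3 and 6 days and nearer the young level in MetaICM, HMOX1 and NQO1 the reverse, and CCND2, PTX3 and TXNIP were highest in MetaICM.

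Matrix and contractile genes were higher in MetaICM. The smooth muscle contractile list, whose genes are driven by SRF with myocardin or MRTF factors, had 17 of 19 members higher and none lower (median log2FC 1.59). TAGLN, transgelin, had 48.3 and 57 CPM after 6 days, 454 and 514 CPM in MetaICM and 529 and 388 CPM in young cells (log2FC 3.20, SE 0.09, edgeR adjusted p = 5.67e-17). Of its 4260 exon bases, 2232 overlap exons on the opposite strand, where pairs were not counted. ACTG2, an enteric smooth muscle actin, had 58.9 and 61.6 against 351 and 384 CPM (log2FC 2.61), and ACTA2, the actin that marks myofibroblasts, 59 and 72.2 against 292 and 316 CPM (log2FC 2.21). MYOCD, myocardin, had a log2FC of 0.42 and was not called, and neither was DES. The CArG box, the binding motif of SRF, was in the windows of 4 of 14 listed genes with an entry, or 28.6%, against 1.44% of all 27305 genes. ACTG2 is shown from base 130 to base 51 before its start because it holds 2 of these motifs, in capitals.
ACTG2 (chr2:73892878-73892957, + strand): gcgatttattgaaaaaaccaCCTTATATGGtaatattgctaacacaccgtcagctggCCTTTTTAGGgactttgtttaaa

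Of 24 collagens, 14 were higher and 3 lower (median log2FC 0.81). COL6A3, a chain of microfibrillar collagen, was among the most counted genes, with 5014.6 and 4996.7 CPM after 6 days, 15904.7 and 15246.9 CPM in MetaICM and 17238.4 and 15793.5 CPM in young cells (log2FC 1.63, SE 0.10). COL1A1, the main fibrillar collagen, had 1894.2 and 1873.8 against 5762.5 and 6031.7 CPM (log2FC 1.64). COL12A1 was lower (log2FC -0.66), and at -0.56 short of the cutoff without MetaICM replicate 2. Fibulin 1 (FBLN1) had 12.1 and 8.87 against 99.3 and 112 CPM (log2FC 3.33). Fibronectin (FN1) had 10097.5 and 10556.2 CPM against 18292.2 and 14448 CPM. Its log2FC of 0.66 was 0.49, short of the cutoff, without MetaICM replicate 1, and both groups were well below the young libraries, with 38142.2 and 32126.1 CPM. Periostin (POSTN) was lower in MetaICM than after 6 days, with 19.3 and 20.2 against 40.5 and 35.7 CPM, and both lay far under the 223 and 239 CPM of young cells. The 33 elastic and matricellular genes tested counted 16 higher and 4 lower (median log2FC 0.57).

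Secreted signals moved in both directions. Over all genes tested, 15.7% were higher and 12% lower. In the WNT list, 13 of 22 genes were higher and 2 lower (median log2FC 0.82). SFRP1, a secreted WNT antagonist, had 37.5 and 33.6 CPM after 6 days, 190 and 189 CPM in MetaICM and 94.6 and 78.3 CPM in young cells (log2FC 2.41, SE 0.08), while WNT5A was lower, with 764 and 762 against 382 and 383 CPM. BMP2 was lower (log2FC -1.72) and BMP4 higher (log2FC 2.03) in a list with 4 of 20 higher and 6 lower. Among 28 growth factors and receptors, 9 were higher and 8 lower. NRG1, a ligand of ERBB receptors, had 614 and 523 against 90.5 and 80.2 CPM (log2FC -2.74), and PDGFRB 153 and 160 against 418 and 401 CPM (log2FC 1.38). TXNIP, which restrains glucose uptake and belongs to the FOXO list, had 31.8 and 35.6 CPM after 6 days, 353 and 336 CPM in MetaICM and 137 and 170 CPM in young cells (log2FC 3.35, SE 0.08). NOTCH1 and its ligand DLL4 were higher by log2FC of 1.68 and 1.98, among 4 of 11 Notch genes, with none lower. The Notch list had a median exon GC content of 59.7%. With the GC and length offsets, 3 of its genes were higher, and its median log2FC of 0.41 became 0.23. The YAP and TEAD list holds these factors as well as their targets. Of its 20 genes 7 were higher, among them TEAD2, TEAD3 and TEAD4, and none was lower. Of 20 TGF-beta genes 7 were higher and 2 lower.

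In the remaining lists, calls were counted in the same way, beside 15.7% higher and 12% lower over all genes tested. Several lists were near these shares, such as FOXO (19% and 14.3%), lysosome (14.3% each) and cholesterol genes (10.7% each). Cytosolic ribosomal proteins counted 3 higher of 32 and none lower (median log2FC 0.21), ribosome biogenesis genes 4 of 28 and none (0.07), heat shock genes 2 higher and 1 lower of 20 (-0.10), endoplasmic reticulum chaperones 3 and 1 of 20 (-0.07), and cholesterol genes 3 and 3 of 28 (0.05). FOXO genes counted 4 higher and 3 lower of 21, clock genes 5 and 3 of 17, glucocorticoid-responsive genes 5 and 2 of 17, lipid genes 3 and 2 of 14, nuclear noncoding RNAs 2 and 1 of 22, and metallothionein genes 1 and 2 of 6 (median log2FC -0.51). The lysosome list counted 4 higher and 4 lower of 28, which became 1 and 7 with the GC and length offsets.

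Each group was also set beside the young libraries, which both of these comparisons share. The values therefore stand side by side and were not tested against each other. Of 15904 genes tested, MetaICM was higher than young in 1179 (7.41%) and lower in 1430 (8.99%). Among the mitosis genes, 13 of 30 were lower than young in MetaICM, with a median log2FC of -0.57, where the median after 6 days was -3.86. For E2F and replication genes, 4 of 35 were lower (median -0.24, against -2.22 after 6 days), and for the 49 histones none was lower or higher (median -0.07, against -3.76). The NRF2 list had a median of 0.09 against 1.85, with 4 of 30 lower and 2 higher than young in MetaICM. Smooth muscle genes had a median of -0.00 against -1.49, with 4 of 19 lower and 2 higher than young in MetaICM. Collagens had a median of -0.13 against -0.93, with 5 of 24 lower and none higher, and glycolytic genes of 0.32 against 1.25, of which 6 of 27 stayed higher than young.

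The p53 targets were nearer to the 6-day level, with a median against young of 0.57 in MetaICM and 0.87 after 6 days, and 12 of 30 were higher than young in MetaICM. CDKN1A had a log2FC against young of 1.69 in MetaICM (edgeR adjusted p = 0.000133) and 2.77 after 6 days. The interferon list had medians of 0.53 and -0.19, and 11 of 28 genes were higher than young in MetaICM. CCND2 (log2FC against young 1.71), PTX3 (1.09), TXNIP (1.15), SFRP1 (1.11), IGFBP7 (1.45) and C7 (1.44) were above young in MetaICM and had log2FC of -0.77, -2.62, -2.20, -1.30, -0.36 and -0.30 after 6 days. KYNU (-1.11), CYP1B1 (-1.99), PTGS2 (-3.39) and NRG1 (-1.34) were below young in MetaICM and had log2FC of 3.80, 1.93, 1.03 and 1.40 after 6 days.

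**Figure D4:**
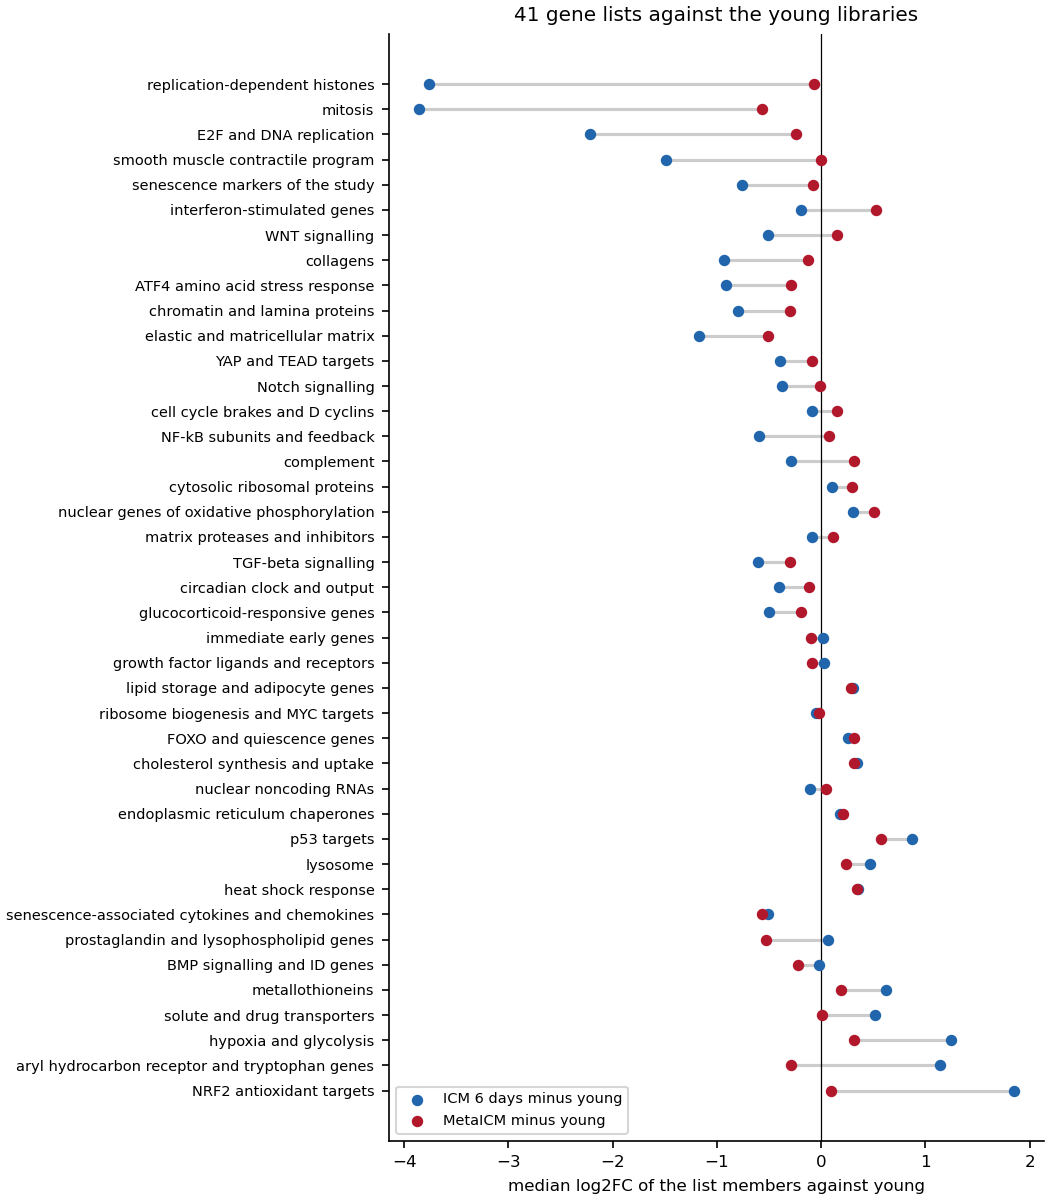
Median log2FC against the young libraries of the members of each gene list, with ICM 6 days in blue and MetaICM in red, ordered by the median of MetaICM against 6 days. Both points use the same young libraries. Histone, mitosis and replication lists lie far left of 0 for 6 days. Their medians for MetaICM are -0.07, -0.57 and -0.24. The NRF2 list lies far right for 6 days and near 0 for MetaICM.

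Among the genes with the largest differences not yet described were several of low level. SLC14A1, a urea transporter, received 1 count after 6 days and 533 in MetaICM, a ratio of 463 (95% exact binomial interval from 82.8 to 18334.4), with 1.01 and 2.54 CPM in young cells against 12 and 12.7 CPM in MetaICM. KRT19, an epithelial keratin, had 0.162 and 0.266 CPM after 6 days, 6.65 and 7.52 CPM in MetaICM and 5.3 and 3.69 CPM in young cells. FER1L6, of the ferlin family, had 49.5 and 42.3 against 1.09 and 0.525 CPM (log2FC -5.85), and HKDC1, a hexokinase-like gene, 18.1 and 19.5 against 0.447 and 0.743 CPM (log2FC -4.95). Of the 22 senescence markers that the study names or labels in its panels, 13 were higher and 5 lower. The study may have chosen some of them with its own data in view.

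The share of genes called moved with the base composition of the exons. Genes were divided by GC content into 10 bins of equal size. In the bin with the lowest content (29.3% to 38.7%), 7.36% were higher and 22.7% lower in MetaICM, and in the bin with the highest (61.6% to 86.4%), 37.5% were higher and 2.74% lower. Across 16036 genes, which are not independent replicates and share the same 4 libraries, Spearman's rho of log2FC with GC content was 0.36 and with the length of the gene from start to end -0.12. Higher genes had a median of 55.1% GC and spanned a median of 21751 bases, and lower genes 43.6% and 36403 bases. Between the 2 replicates of a group, the median difference in the top bin was -0.059 (MetaICM) and -0.007 (6 days) on the log2 scale. Long noncoding RNAs were higher in 11.8% and lower in 19.3% of 1309 genes. Whether composition reflects the cells or the libraries was not tested.

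When offsets for exon GC content and length were fitted in each library, 2126 genes were higher and 1753 lower, of which 1880 and 1477 were also called without them, and no gene changed direction. The median log2FC of the lists that led the comparison was then 3.51 for histones, 3.39 for mitosis, 1.90 for replication, 1.48 for smooth muscle and -1.61 for the NRF2 list. The interferon list counted 15 higher and 1 lower, collagens 12 and 4, the ATF4 list 14 and 7, and glycolytic genes 1 and 21.

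**Figure D5:**
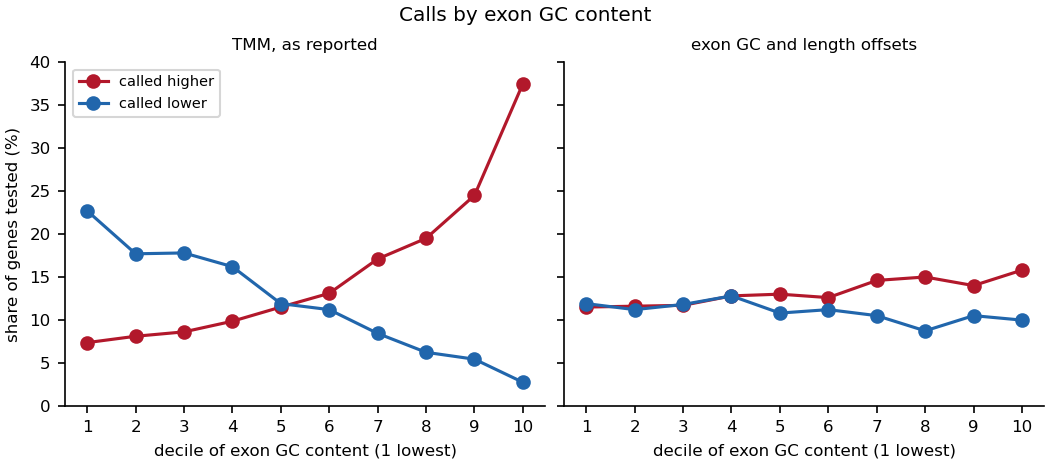
Share of the genes tested that were called higher (red) or lower (blue) in MetaICM than after 6 days of ICM, by decile of exon GC content from lowest to highest, with TMM scaling at the left and with offsets for exon GC content and length at the right. At the left the share called higher climbs from 7.36% to 37.5%, and at the right it lies between 11.5% and 15.8%.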

How the data were processed

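Raw counts per gene, as deposited, were made by the authors with STAR 2.6.0c and featureCounts 1.6.3 on hg19 RefSeq genes, from primary, properly paired alignments and without strand. Per the file headers, featureCounts ran without the option that counts pairs overlapping several genes. The files pair counts with gene symbols, and 26986 of 28265 genes matched the RefSeq table used for names and biotypes.

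Genes passing filterByExpr (minimum count 10) were tested with edgeR 4.0.16 in R 4.3.3 (TMM factors, quasi-likelihood test, Benjamini-Hochberg adjustment) on the 4 libraries alone. A gene was called at an adjusted p under 0.05 and an absolute log2FC over 0.6. CPM used TMM factors of all 8 libraries. The test was checked on simulated counts. DESeq2 1.42.0 was an alternative. The offsets for exon GC content and length were chosen after seeing the data.

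The members and gene lists were chosen with earlier results of these data known. Named genes were 12 genes per direction ranked by log2FC (libraries not overlapping, at least 100 counts in each library of the higher group), the 5 most counted called genes in each direction, the 2 list members with the smallest adjusted p in each direction, and the study's own markers. AURKB, PLK1, CDC20, NQO1, GCLM, ACTA2, CXCL8, LDHA, SLC2A1, MX1, OASL, FOS, CCND1, CDKN2A, IL6, ATF4, PSAT1, PHGDH, HIF1A, AHR, TIPARP, NFE2L2, RN7SL1, RN7SL2 and RN7SK, and list members given by log2FC or name alone, were chosen after their values were seen. Gene coordinates are hg19.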

Additional observations from a re-analysis of the deposited data

How the results depend on the processing

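Under 15 alternatives to the main settings, the number of genes higher in MetaICM stayed between 2047 (DESeq2) and 2547, against 2518, and the number lower between 1520 (DESeq2) and 2059 (upper-quartile factors), against 1929. Leaving out each library in turn gave 2257 to 2547 higher and 1659 to 1955 lower genes. The lone library of a group was then assumed to vary like the other pair. The members of the gene lists called higher numbered 297 to 342, against 334, the lowest with the offsets for exon GC content and length, and those called lower 140 to 160, against 150. The replicate block gave 2533 higher and 1951 lower genes, 334 and 152 among the list members. The labels give no shared origin for equal replicate numbers, and the deviations of equally numbered libraries from their group means correlated with an r of 0.0381, so the numbers were not taken as pairs. Of 196 named genes that were called, none changed direction under any alternative run for it. DESeq2 lost 10 calls, the GC and length offsets 17, and leaving out 1 library 4 to 11. The fitted log2FC of genes near 0 counts depended on single libraries: H2BC14 had 8.32, but 10.76 without 6-day replicate 1, SLC14A1 8.55, but 10.99 without 6-day replicate 2, and SPP1 -9.52, but -11.70 without MetaICM replicate 2. With 2 libraries a group, the spread rests on few values, and genes of a few counts are known only to their intervals.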

Other observations

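Some small noncoding RNAs made by RNA polymerase III differed more between the MetaICM replicates than most genes did. RN7SL1, the RNA of the signal recognition particle, had 633 and 651 CPM after 6 days and 1227.3 and 1974.7 CPM in MetaICM (log2FC 1.31, SE 0.13), and 0.94 without MetaICM replicate 2. RN7SL2, a near-identical copy that may share its reads, had 494 and 518 against 1034.8 and 1682.8 CPM. RN7SK, which holds the elongation factor P-TEFb inactive, had 1418.8 and 1379 against 1649.5 and 2781.2 CPM, and its log2FC of 0.66 was 0.24, short of the cutoff, without MetaICM replicate 2. RPPH1, the RNA of ribonuclease P, had 42.8 and 49.6 against 81 and 108 CPM (log2FC 1.03). RMRP, another such RNA, was not called. Its log2FC of 0.27 ranged from 0.18 to 0.35 when each library in turn was left out. In 3-day libraries RN7SK also differed between replicates, with 2507.9 and 1229 CPM.

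CARMN, a long noncoding RNA of smooth muscle cells, had 1.35 and 1.06 CPM after 6 days and 11.9 and 15.8 CPM in MetaICM (log2FC 3.52, SE 0.22), with 36.5 and 48.1 CPM in young cells, so that MetaICM lay between both groups.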
